A study of Homo sapiens with 9 samples.

Results

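The genes examined were those of the WNT module, chosen by symbol: the WNT ligands, the Frizzled receptors (FZD), the secreted antagonists SFRP and DKK, the co-receptors LRP5, LRP6, ROR1 and ROR2, the R-spondin receptors LGR4, LGR5 and LGR6, the ubiquitin ligases RNF43 and ZNRF3, and the scaffolds AXIN1 and AXIN2. Of 60199 symbols in the count table, 48 matched, of which 19 were ligands, 10 were Frizzled receptors, 4 were SFRP and 4 were DKK genes. Their RNA was compared between MCF10A cells and a pair of lines derived from them by long exposure to the growth factor BMP2 and the cytokine IL6. MCF10A is a non-malignant, immortal human mammary epithelial line that lacks CDKN2A and carries an amplified MYC. The derived lines started from this background, and their gene copies were not measured here. The untreated cells were MCF10A-CT (CT). MC26 came from unsorted MCF10A cells. M1B26 started from the BMPR1B-positive fraction of MCF10A, BMPR1B being a receptor of BMP2, and from 3 soft-agar clones of it that were picked and grown on. Both derived lines are labelled as transformed and were kept in medium with BMP2 and IL6, whereas CT received neither, so the transformed state and the presence of the factors cannot be told apart. For M1B26 the sort and the choice of clones add to this. The study reports that the sorted cells transformed faster, within a few weeks, so the time of exposure may also differ between the derived lines. Each line had 3 cultures, and all 3 lines descend from the same parent.

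WNT ligands are lipid-modified secreted proteins that bind a Frizzled receptor and, in the beta-catenin branch, LRP5 or LRP6. Binding stops the AXIN complex from degrading beta-catenin, which then acts with TCF and LEF factors in the nucleus. Other ligands signal through Frizzled with ROR1 or ROR2 and alter cell polarity and movement without beta-catenin. RNF43 and ZNRF3 remove Frizzled from the cell surface, and R-spondins bound to LGR receptors hold them back. SFRP proteins bind ligands, and DKK1 blocks LRP5 and LRP6. In the mammary gland the pathway is known for its part in ductal growth and in the upkeep of basal stem cells.

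The libraries held 21425118 to 80076597 counts each, with CT replicate 2 the shallowest. Levels are given as CPM, the counts of a gene scaled to a library size of 1000000 and adjusted between libraries by the TMM method. A gene was called changed where the edgeR quasi-likelihood test gave a Benjamini-Hochberg adjusted p under 0.05 over all 15717 genes tested. The 7 basal mammary markers all reached a mean of 1 CPM, with KRT5 at 5922 CPM, and so did 5 of 7 luminal markers, so the defining markers of a mammary epithelial line were present. Their levels differed between lines. KRT14 had 42.2 to 61.7 CPM in CT, 766 to 1521 in MC26 and 461 to 625 in M1B26, EPCAM had 65.6 to 74.4, 11.7 to 19.1 and 63.5 to 85.7, and KRT8 had 330.4 to 392, 192 to 209.8 and 294 to 319. ITGA6, LAMB3 and TP63 were higher in every derived library than in CT, whereas KRT5 had 5771 to 7296, 5562 to 6692 and 4631 to 5218 CPM. GATA3 had 14.8 to 18.4, 11.1 to 13.2 and 7.26 to 7.97 CPM, and CDH1 had 67.6 to 86.2, 37.5 to 44.8 and 34.2 to 55.3. The luminal markers KRT19 and ESR1 reached at most 0.284 and 0.443 CPM in any library. The 7 basal markers summed to 7246 to 9000 CPM in CT, 9199 to 11618 in MC26 and 7456 to 7777 in M1B26, and the 7 luminal markers to 984 to 1128, 695 to 728 and 952 to 1020. Of the leukocyte markers, CD3E had no count in any library and PTPRC stayed at or below 0.03 CPM, but the summed list ran from 19.5 to 25.7 CPM in CT, 41.2 to 51.6 in MC26 and 62.4 to 84.2 in M1B26. CD68 had 7.86 to 10.5 CPM in CT and 18.1 to 31.0 in the derived lines, CD14 had 6.90 to 17.8 CPM in CT and MC26 and 33.8 to 47.9 in M1B26, and CSF1R reached 14.9 CPM in MC26 replicate 1. The 8 fibroblast markers summed to 37.4 to 37.8, 17.1 to 56.8 and 28.5 to 39.9 CPM in CT, MC26 and M1B26, with DCN the highest on the mean over all libraries and THY1 without a count. The 6 endothelial markers summed to 8.15 to 8.25, 2.19 to 3.76 and 3.65 to 6.59 CPM, with CLDN5 without a count. The part of these marker differences in the results below was not tested. In whole cultures, fewer cells that express a gene and less of its RNA per cell cannot be told apart.

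Of the 48 members, 29 had enough counts to be tested and 24 reached a mean of 1 CPM in a line. In MC26 against CT, 14 of the 29 tested members were called, 6 higher and 8 lower, where 38.7% of all genes tested were called (18.8% higher and 19.9% lower). In M1B26 against CT, 16 were called, 5 higher and 11 lower, against 48.9% of all genes (25.2% higher and 23.7% lower). In M1B26 against MC26, 12 were called, 6 in each direction, against 39.5% of all genes (21.2% higher and 18.4% lower). The median log2 fold change of the tested members was -0.18, -0.13 and -0.10 in these comparisons and 0.00 over all genes in each. With library totals alone in place of TMM factors, the split of called members became 6 higher and 9 lower in MC26 and 5 higher and 12 lower in M1B26, each against CT. Over all genes, 35.8% and 39.6% of calls were then higher, where TMM gave 48.5% and 51.5%. Calls of at least 2-fold numbered 4 members in MC26 against CT, 1 higher and 3 lower, where 10.8% of all genes passed (4.0% higher and 6.79% lower). They numbered 6 in M1B26 against CT, 2 higher and 4 lower, where 11.7% passed (6.02% higher and 5.71% lower), and 5 between the derived lines, 3 higher and 2 lower in M1B26, where 8.17% passed (5.92% higher and 2.25% lower). The libraries of the lines compared did not overlap for 14, 18 and 13 members, where 50.3%, 59.0% and 53.5% of all genes did not. MC26 and M1B26 were set against the same CT libraries, so their values against CT are given side by side and the lines were compared directly with each other.

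**Figure D1:**
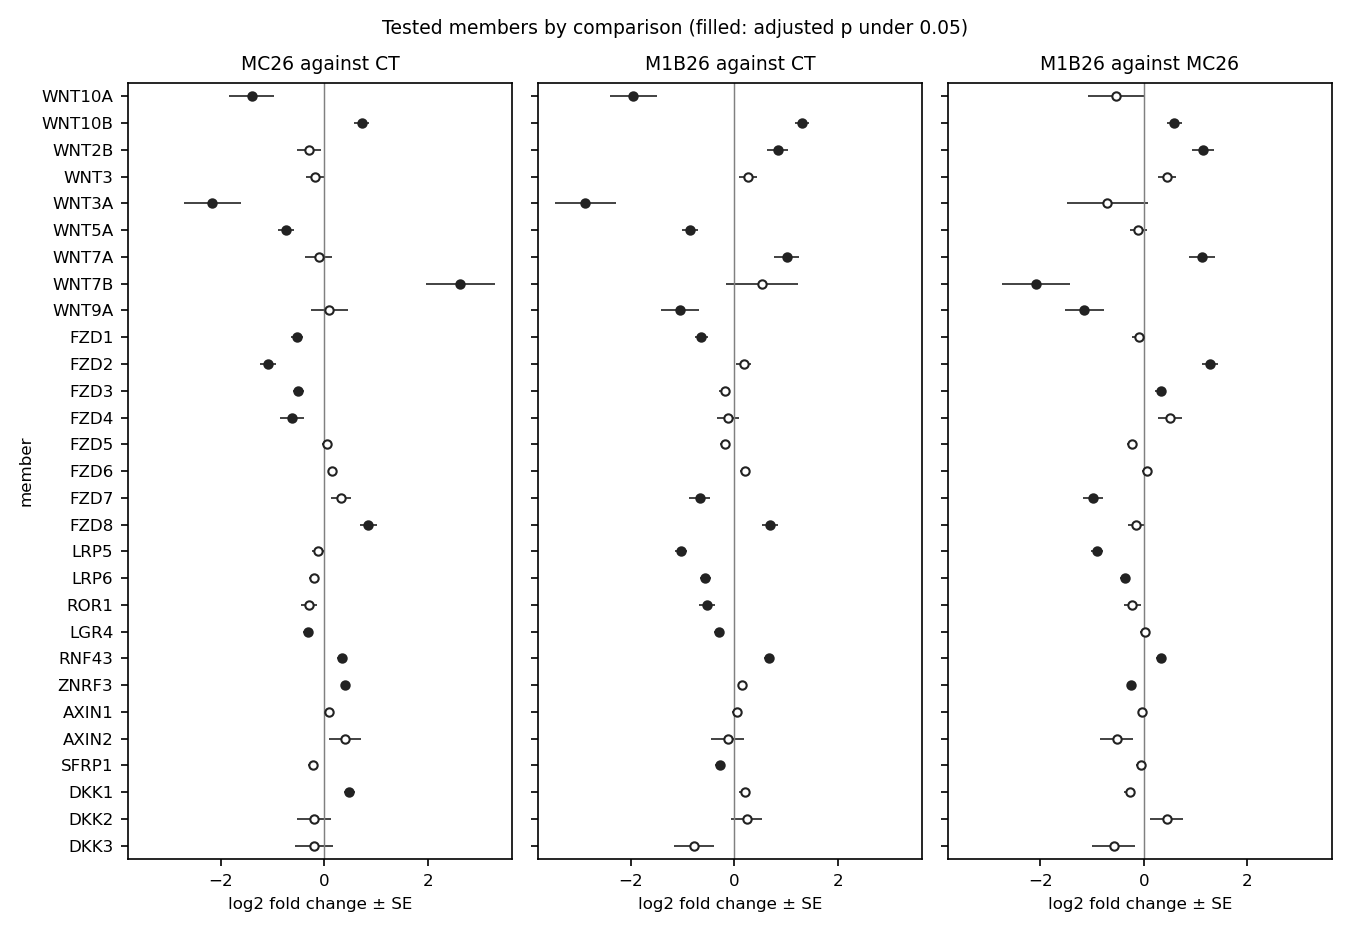
Log2 fold change (x axis, points, with lines for ± SE) of the 29 tested members, listed by role, with each derived line set against CT in the first panels and M1B26 against MC26 in the last. Filled points are the 14, 16 and 12 members called at an adjusted p under 0.05, and WNT10B is filled on the higher side in all 3 panels.

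Among the ligands, WNT10B was higher and WNT5A lower in both derived lines than in CT. WNT10B, a ligand of the beta-catenin branch that drives mammary growth when overproduced in mice (chr12:48965340-48971735, minus strand, GRCh38), had 4.31, 3.27 and 4.43 CPM in the CT libraries, 7.38, 5.91 and 6.87 in MC26 and 11.2, 10.2 and 8.94 in M1B26. Every MC26 library was above every CT library, and every M1B26 library was above every MC26 library. The log2 fold change was 0.72 ± 0.14 (SE) in MC26 against CT (edgeR adjusted p = 0.00253), 1.31 ± 0.14 in M1B26 against CT (edgeR adjusted p = 3.12e-05) and 0.59 ± 0.14 in M1B26 against MC26 (edgeR adjusted p = 0.00654). WNT5A, the best known ligand of the branch that does not use beta-catenin (chr3:55465715-55490539, minus strand), had 8.53, 11.1 and 12.2 CPM in CT, 6.02, 7.32 and 5.69 in MC26 and 5.27, 6.58 and 5.83 in M1B26. All 6 libraries of the derived lines lay below the lowest CT library, and the derived lines overlapped each other. Its log2 fold change was -0.74 ± 0.15 in MC26 (edgeR adjusted p = 0.00325) and -0.85 ± 0.15 in M1B26 (edgeR adjusted p = 0.000994), and -0.10 ± 0.16 between the derived lines (edgeR adjusted p = 0.62).

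WNT7A and WNT2B were higher in M1B26 than in either other line. WNT7A, a ligand known from limb and female reproductive tract patterning (chr3:13816258-13880071, minus strand), had 0.986, 0.917 and 1.18 CPM in CT, 1.27, 0.967 and 0.682 in MC26 and 2.28, 1.59 and 2.46 in M1B26. No M1B26 library overlapped a library of CT or MC26. It rose by 1.01 ± 0.24 on the log2 scale against CT (edgeR adjusted p = 0.00561) and by 1.12 ± 0.25 against MC26 (edgeR adjusted p = 0.00514). WNT2B (chr1:112466541-112530165, plus strand) had 0.543, 0.655 and 0.573 CPM in CT, 0.547, 0.471 and 0.400 in MC26 and 1.13, 1.06 and 0.942 in M1B26. M1B26 again lay above all other libraries, by 0.84 ± 0.21 against CT (edgeR adjusted p = 0.00592) and 1.14 ± 0.22 against MC26 (edgeR adjusted p = 0.00199) on the log2 scale. These values rest on 57 to 146 counts a line for WNT2B and 117 to 301 for WNT7A. In MC26 against CT the log2 fold changes were -0.11 ± 0.26 for WNT7A and -0.30 ± 0.23 for WNT2B, and neither passed the test. WNT2B shares 21.5% of its exonic bases with ST7L on the other strand, whose reads the counting may not have kept apart.

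WNT7B and WNT9A varied widely among the MC26 cultures. WNT7B, a ligand that epithelia such as lung and kidney collecting duct send to their stroma (chr22:45920366-45977162, minus strand), had 1.1, 0.742 and 1.28 CPM in CT, 14.6, 4.37 and 1.22 in MC26 and 1.80, 1.21 and 1.74 in M1B26. MC26 replicate 1 was the highest of all libraries, whereas MC26 replicate 3 lay within the CT range. The fitted log2 fold change in MC26 was 2.62 ± 0.67 against CT (edgeR adjusted p = 0.0101) and M1B26 was at -2.08 ± 0.65 against MC26 (edgeR adjusted p = 0.0255). Without MC26 replicate 1 the MC26 value against CT was 1.35 (edgeR adjusted p = 0.0392), and M1B26 against MC26 was -0.80 and no longer passed (edgeR adjusted p = 0.175). That call was also lost without M1B26 replicate 1, 2 or 3, at log2 values of -2.18, -1.93 and -2.16. WNT9A, a ligand known from joint formation (chr1:227918656-227947932, minus strand), had 2.67, 2.44 and 2.80 CPM in CT, 4.23, 3.11 and 1.22 in MC26 and 1.01, 1.06 and 1.74 in M1B26. The M1B26 libraries were below all CT libraries, and MC26 replicate 3 fell among them. WNT9A fell by 1.05 ± 0.37 on the log2 scale in M1B26 against CT (edgeR adjusted p = 0.0356) and by 1.15 ± 0.37 against MC26 (edgeR adjusted p = 0.0304). The first call was lost without CT replicate 1, 2 or 3, MC26 replicate 2 or M1B26 replicate 1 or 2, with log2 values between -1.1 and -0.90. The second was lost without MC26 replicate 1 or 2 or M1B26 replicate 1 or 2, with values between -1.08 and -0.74.

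The remaining tested ligands were WNT3, WNT3A and WNT10A. WNT3, a ligand of the beta-catenin branch, ranged from 1.88 to 3.34 CPM over the 9 libraries, and its log2 values of -0.18 ± 0.17, 0.27 ± 0.17 and 0.45 ± 0.17 in the 3 comparisons did not pass. WNT3A, its close relative, had 34, 7 and 26 counts in CT, 2, 2 and 6 in MC26 and 4, 0 and 3 in M1B26. The CT libraries lay above the others in CPM, and the log2 fold change was -2.17 ± 0.55 in MC26 (edgeR adjusted p = 0.00973) and -2.87 ± 0.58 in M1B26 (edgeR adjusted p = 0.00205). The MC26 call did not hold without CT replicate 1, where the value was -1.89 (edgeR adjusted p = 0.052). WNT10A, a ligand known from skin appendages and teeth, had 0.571, 0.218 and 0.598 CPM in CT, 0.124, 0.157 and 0.282 in MC26 and 0.135, 0.189 and 0.0738 in M1B26, on totals of 94, 23 and 18 counts. Its M1B26 libraries lay below CT, at a log2 value of -1.94 ± 0.45 (edgeR adjusted p = 0.00452), while MC26 overlapped CT at -1.40 ± 0.43 (edgeR adjusted p = 0.0255). The MC26 call did not hold without CT replicate 1 or 3 or MC26 replicate 1 or 2, at values from -1.28 to -1.17. With so few counts, the size of the fold change of WNT3A and WNT10A is uncertain beyond its SE.

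**Figure D2:**
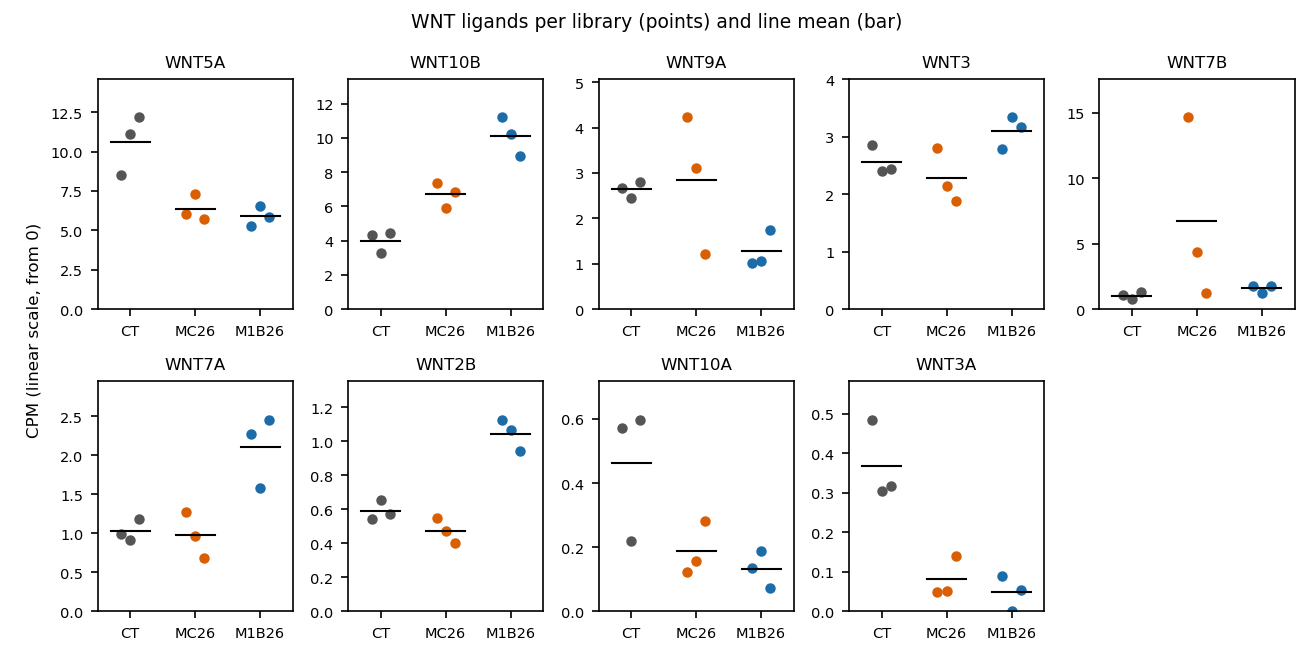
CPM (y axis, linear, from 0) of the 9 tested WNT ligands in CT, MC26 and M1B26, with a point for each of the 3 libraries of a line and a bar for their mean. WNT10B runs from 3.27 to 4.43 CPM in CT to 8.94 to 11.2 CPM in M1B26, and WNT7B in MC26 spreads from 1.22 to 14.6 CPM.

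Levels of different ligands were compared per kilobase of exon, since longer transcripts yield more reads. Summed over the 19 ligands, CT had 5.12 ± 0.52 CPM per kilobase (SD, n = 3), MC26 had 6.31 ± 2.0 and M1B26 had 6.63 ± 0.28. WNT10B and WNT5A took nearly equal parts of this sum in CT, with 29.98% ± 2.84 and 29.04% ± 5.04, and their order there turned when the canonical transcript length was used, with 28.6% for WNT10B and 29.3% for WNT5A. In M1B26 the share of WNT10B was 58.6% ± 4.34 and that of WNT5A 12.46% ± 1.71, and the ranges of the libraries, 53.7% to 62.0% and 10.6% to 14%, lay far apart. In MC26 the WNT10B share was 43.1% ± 11.8, the WNT5A share 14.92% ± 4.44 and the WNT7B share 17.98% ± 14.5, where WNT7B alone ran from 5.12% to 33.7% of the sum. From CT through MC26 to M1B26, WNT9A took 12.9% ± 0.48, 10.8% ± 3.82 and 4.83% ± 1.70 of the sum, and WNT7A took 4.42% ± 0.16, 3.41% ± 0.30 and 7.02% ± 1.58. These shares are descriptions and were not tested.

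**Figure D3:**
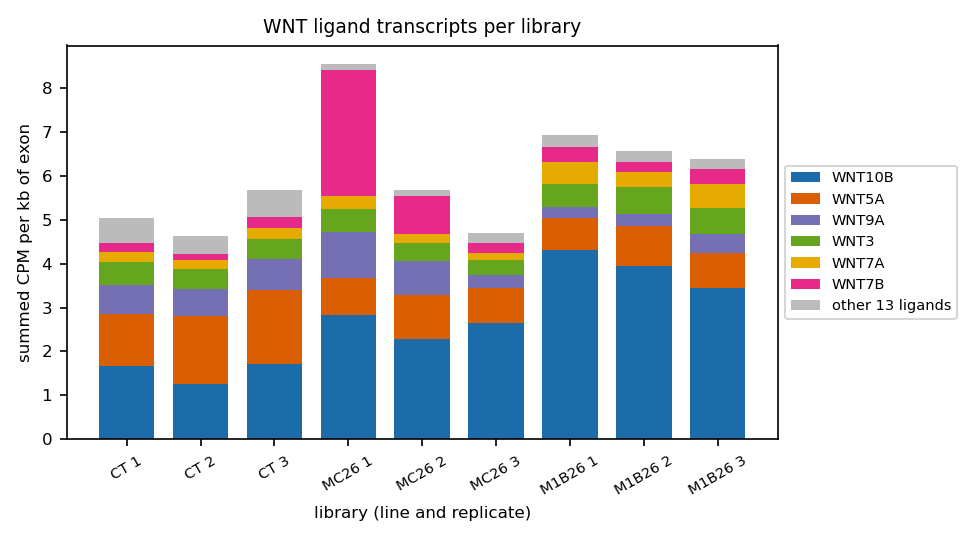
Stacked CPM per kilobase of exon (y axis, linear, from 0) of the WNT ligands in each of the 9 libraries, for the 6 ligands with the largest parts and the other 13 together. WNT10B is the largest block in all M1B26 libraries, at 53.7% to 62.0% of the stack, and the WNT7B block stands out in MC26 replicate 1.

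The other 10 ligands were not tested, and no untested member exceeded 16 counts in a library. WNT1 and WNT8A had no count in any library, which at 3 counts allows up to 0.0366 CPM in the deepest and 0.131 CPM in the shallowest library. WNT5B, a relative of WNT5A, had 12, 1 and 14 counts in CT, 1, 0 and 0 in MC26 and 1, 1 and 0 in M1B26. WNT6 had 2, 1 and 6 counts in CT and none in the derived lines, and WNT8B had 2, 4 and 11 in CT, none in MC26 and 4, 2 and 3 in M1B26. WNT11 totalled 27, 6 and 16 counts and WNT4 23, 7 and 9 counts in CT, MC26 and M1B26. WNT2, WNT9B and WNT16 totalled at most 2 counts in any line. CT replicates 1 and 3 were the deepest libraries, so counts of this size cannot be compared between lines as they stand.

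Among the Frizzled receptors, FZD2 separated MC26 from the other lines. FZD2 (chr17:44557484-44561262, plus strand), a receptor in both branches of the pathway, had 17.9, 15.7 and 22.4 CPM in CT, 7.36, 9.20 and 9.93 in MC26 and 19.8, 20.1 and 24 in M1B26. The MC26 libraries all lay below the lowest library of CT and of M1B26, and CT and M1B26 overlapped. The log2 fold change was -1.09 ± 0.15 in MC26 against CT (edgeR adjusted p = 0.000251), 0.18 ± 0.14 in M1B26 against CT (edgeR adjusted p = 0.315) and 1.27 ± 0.15 in M1B26 against MC26 (edgeR adjusted p = 0.000109). FZD7, a receptor linked to basal and stem cell properties in the breast (chr2:202033855-202038441, plus strand), had 2.09, 3.06 and 2.54 CPM in CT, 3.80, 3.01 and 2.59 in MC26 and 1.44, 1.51 and 1.79 in M1B26. M1B26 was below all other libraries, at log2 values of -0.67 ± 0.20 against CT (edgeR adjusted p = 0.0172) and -0.98 ± 0.20 against MC26 (edgeR adjusted p = 0.00296), while MC26 against CT was 0.31 ± 0.19 and did not pass. The call of FZD7 against CT was lost without M1B26 replicate 1 or 2, at -0.60 and -0.63.

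FZD1 and FZD8 moved in opposite directions in both derived lines. FZD1 had 13.9 to 15.9 CPM in CT, 8.90 to 12.4 in MC26 and 9.06 to 9.97 in M1B26, and fell by 0.53 ± 0.12 in MC26 (edgeR adjusted p = 0.0057) and by 0.63 ± 0.12 in M1B26 (edgeR adjusted p = 0.00142) on the log2 scale. FZD8 had 7.29 to 12.3 CPM in CT, 16.3 to 21.2 in MC26 and 16 to 17.9 in M1B26, and rose by 0.85 ± 0.16 (edgeR adjusted p = 0.00184) and 0.70 ± 0.16 (edgeR adjusted p = 0.00425). Between the derived lines FZD1 was at -0.10 ± 0.12 and FZD8 at -0.16 ± 0.16, and neither passed the test. FZD3, a planar polarity receptor, fell by 0.50 ± 0.11 in MC26 (edgeR adjusted p = 0.00411), and was higher in M1B26 than in MC26 by 0.32 ± 0.11 (edgeR adjusted p = 0.035), a call lost without CT replicate 1, MC26 replicate 1 or 2 or M1B26 replicate 3, at values of 0.31, 0.25, 0.37 and 0.20. FZD4, the norrin receptor of the retina, fell by 0.62 ± 0.22 in MC26 (edgeR adjusted p = 0.047), a call lost without CT replicate 1, 2 or 3, MC26 replicate 1 or 2 or M1B26 replicate 2, at values from -0.63 to -0.49. FZD4 shares 18.9% of its exonic bases with PRSS23 on the other strand.

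FZD6, a receptor of skin and hair polarity, had the highest level per kilobase of all Frizzled genes in every line. It had 123, 135 and 113 CPM in CT, 133, 133 and 146 in MC26 and 152, 132 and 144 in M1B26, and passed the test in none of the comparisons, with log2 values of 0.15 ± 0.08, 0.20 ± 0.08 and 0.05 ± 0.08. Per kilobase it made up 68.1% ± 4.34 (SD, n = 3) of the Frizzled sum in CT, 73.0% ± 0.46 in MC26 and 69.8% ± 2.30 in M1B26. FZD2 followed in CT and M1B26, with 11.1% ± 2.27 and 11.2% ± 1.08, and FZD8 in MC26, with 9.92% ± 1.44 against 5.04% ± 0.63 for FZD2. The Frizzled sum was 44.7 ± 1.01, 46.3 ± 2.61 and 50.2 ± 2.44 CPM per kilobase. FZD5 ranged from 10.2 to 13.5 CPM and passed no test. FZD9 and FZD10 had at most 6 counts in a library and were not tested.

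LRP5 and LRP6 were lower in M1B26 than in either other line. LRP5, which with LRP6 passes the WNT signal to the AXIN complex (chr11:68312591-68449275, plus strand), had 155, 120 and 169 CPM in CT, 126, 135 and 149 in MC26 and 77.4, 70.0 and 71.2 in M1B26. CT and MC26 overlapped, and the M1B26 libraries lay below both and close together. LRP5 fell by 1.03 ± 0.12 on the log2 scale in M1B26 against CT (edgeR adjusted p = 4.19e-05) and by 0.91 ± 0.12 against MC26 (edgeR adjusted p = 0.00018), a fold of 2.04 and 1.88, and was at -0.12 ± 0.11 in MC26 against CT (edgeR adjusted p = 0.449). LRP6 (chr12:12116025-12267044, minus strand) had 49.0, 59.5 and 49.3 CPM in CT, 42.9, 48.0 and 46.5 in MC26 and 36.5, 31.8 and 38.8 in M1B26. Its M1B26 libraries were also the lowest, at -0.55 ± 0.10 against CT (edgeR adjusted p = 0.000866) and -0.36 ± 0.10 against MC26 (edgeR adjusted p = 0.0141), and the latter call was lost without MC26 replicate 2 or M1B26 replicate 2, at -0.32 and -0.28. ROR1, a receptor for WNT5A, had 6.10 to 7.03 CPM in CT, 4.30 to 5.88 in MC26 and 3.6 to 5.34 in M1B26. It fell by 0.52 ± 0.16 in M1B26 against CT (edgeR adjusted p = 0.0204), a call lost without CT replicate 2 or M1B26 replicate 1 or 2, at -0.47, -0.52 and -0.39. ROR2, its relative, totalled 27, 9 and 16 counts and was not tested.

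The ubiquitin ligases of receptor turnover were called only higher against CT, RNF43 in both derived lines and ZNRF3 in MC26. RNF43, which marks Frizzled for removal (chr17:58353676-58417595, minus strand) had 17.2, 16.4 and 17 CPM in CT, 23.6, 20.3 and 20.2 in MC26 and 28.1, 24.7 and 27.7 in M1B26. The lines did not overlap, with CT the lowest and M1B26 the highest. RNF43 rose by 0.34 ± 0.09 in MC26 (edgeR adjusted p = 0.0101) and 0.66 ± 0.09 in M1B26 (edgeR adjusted p = 0.000104) against CT, and M1B26 was above MC26 by 0.33 ± 0.09 (edgeR adjusted p = 0.0109), a call lost without MC26 replicate 2 at 0.29. Its exons share 68.4% of their bases with a second gene model on the same strand, ENSG00000285897, so the counts may belong to either. ZNRF3, which does the same (chr22:28883572-29057488, plus strand) had 19.5, 18.9 and 20.3 CPM in CT, 26.5, 25.3 and 25.8 in MC26 and 23.1, 21.3 and 20.6 in M1B26. M1B26 lay between CT and MC26 without overlap. ZNRF3 rose by 0.40 ± 0.07 in MC26 (edgeR adjusted p = 0.00146), was at 0.14 ± 0.07 in M1B26 against CT (edgeR adjusted p = 0.12), and was lower in M1B26 than in MC26 by 0.25 ± 0.07 (edgeR adjusted p = 0.0165), a call lost without MC26 replicate 1 or M1B26 replicate 2 or 3, at -0.23, -0.24 and -0.22.

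LGR4, the R-spondin receptor of these cells (chr11:27365961-27472790, minus strand), had 50.5, 58.1 and 48.8 CPM in CT, 36.7, 44.3 and 45.3 in MC26 and 42.9, 39.3 and 46.0 in M1B26. Both derived lines lay below CT and overlapped each other. LGR4 fell by 0.31 ± 0.10 in MC26 (edgeR adjusted p = 0.0283) and by 0.29 ± 0.10 in M1B26 (edgeR adjusted p = 0.0311). The first call was lost without CT replicate 1 or 2 or MC26 replicate 1, at -0.34, -0.24 and -0.22, and the second without CT replicate 2 or M1B26 replicate 1 or 2, at -0.22, -0.29 and -0.23. LGR5, a stem cell marker of the intestine, had no count in any library. LGR6 had 8, 1 and 8 counts in CT, a single count in MC26 and none in M1B26, and was not tested.

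Of the AXIN scaffolds of the beta-catenin destruction complex, AXIN1 ranged from 53.0 to 67.7 CPM and AXIN2 was near the limit of detection. AXIN2, whose transcription is a common readout of beta-catenin activity (chr17:65528563-65561648, minus strand), had 19, 4 and 23 counts in CT, 17, 13 and 11 in MC26 and 9, 12 and 12 in M1B26. This is 0.271, 0.175 and 0.280 CPM, then 0.423, 0.340 and 0.259, then 0.203, 0.284 and 0.222, and the lines overlapped. Its log2 values of 0.40 ± 0.31 in MC26 and -0.13 ± 0.32 in M1B26 against CT, and -0.53 ± 0.32 between them, did not pass (edgeR adjusted p = 0.354, 0.767 and 0.214). With 4 to 23 counts a library, differences of this size were not detectable. Of AXIN2's exonic bases, 25.3% also belong to the gene model ENSG00000266076.

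Among the secreted antagonists, SFRP1 and DKK1 were abundant and the rest were at trace level or absent. SFRP1, which binds WNT ligands and is often silenced in breast cancer, had 600, 577 and 576 CPM in CT, 425, 510 and 580 in MC26 and 484, 487 and 487 in M1B26. The M1B26 libraries were all below CT, while MC26 spread from the lowest value of all libraries into the CT range. SFRP1 fell by 0.27 ± 0.09 in M1B26 against CT (edgeR adjusted p = 0.0375), and its value in MC26 of -0.21 ± 0.09 did not pass (edgeR adjusted p = 0.101). The M1B26 call was lost without CT replicate 1, 2 or 3, MC26 replicate 2 or M1B26 replicate 1, 2 or 3, at values from -0.28 to -0.25. DKK1, itself a target of beta-catenin (chr10:52314281-52318042, plus strand), had 64.9, 76.2 and 74.5 CPM in CT, 112, 93.0 and 96.3 in MC26 and 87.6, 90.3 and 70.7 in M1B26. MC26 lay above both other lines, which overlapped. DKK1 shares 10.2% of its exonic bases with PRKG1-AS1 on the other strand. It rose by 0.48 ± 0.11 in MC26 against CT (edgeR adjusted p = 0.0049), and was at 0.21 ± 0.11 in M1B26 against CT (edgeR adjusted p = 0.136) and -0.28 ± 0.11 in M1B26 against MC26 (edgeR adjusted p = 0.0602). DKK2 and DKK3 stayed below 0.4 CPM and passed no test, and 47.5% of the exonic bases of DKK3 overlap USP47 on the other strand. SFRP4, SFRP5 and DKK4 had no count in any library, and SFRP2 totalled at most 2 counts in a line.

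**Figure D4:**
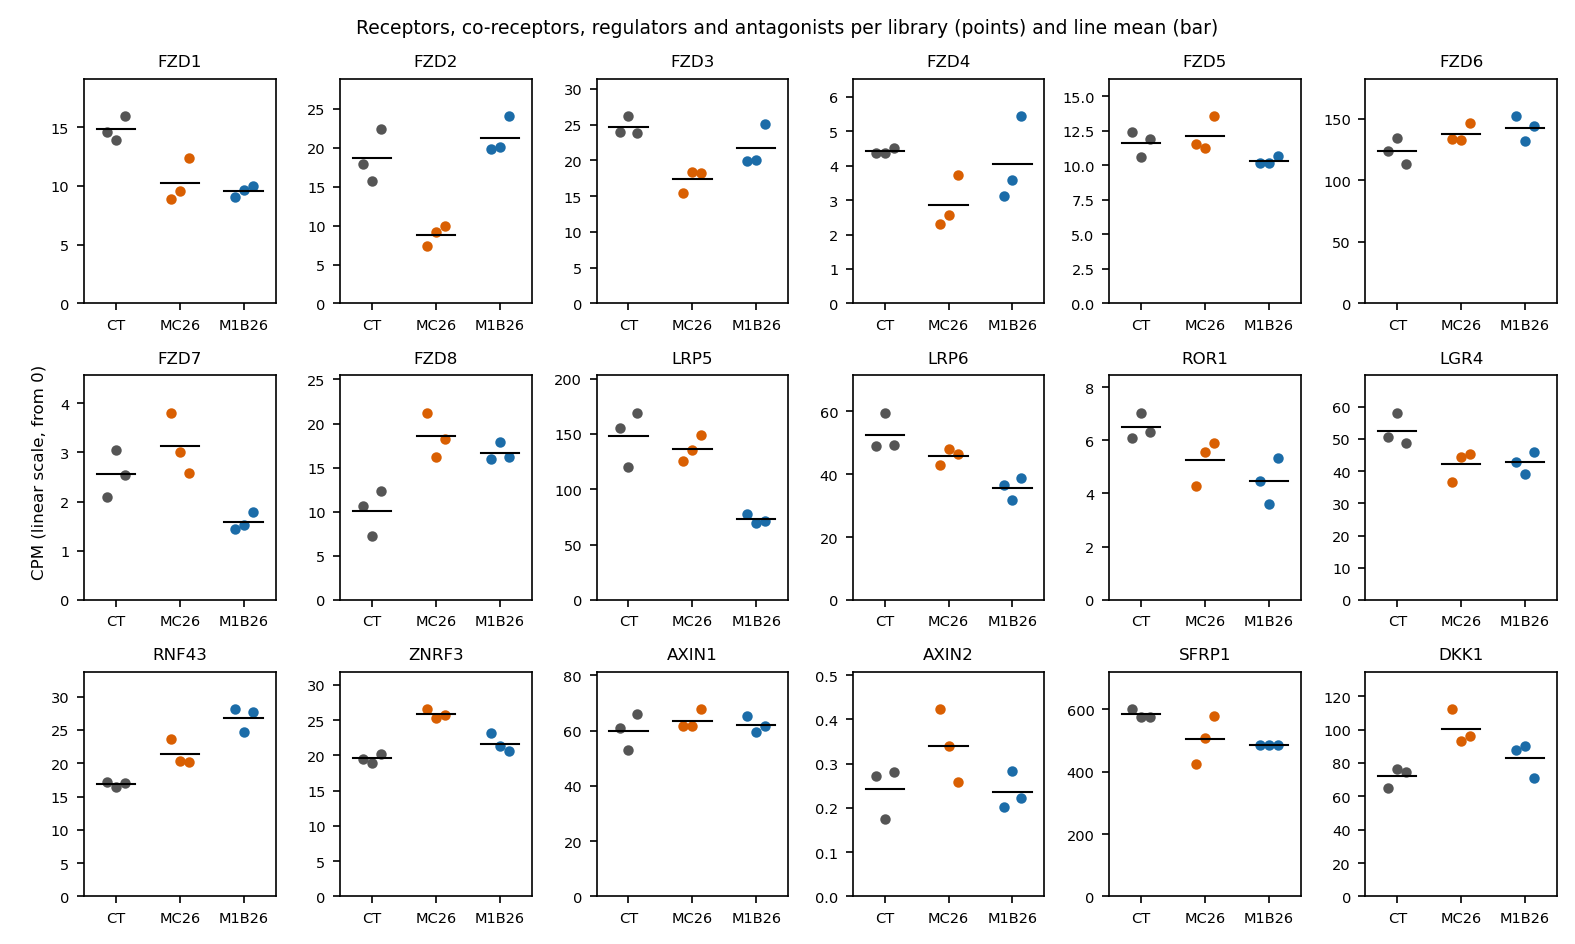
CPM (y axis, linear, from 0) of 18 receptors, co-receptors, turnover regulators, scaffolds and antagonists in CT, MC26 and M1B26, with a point for each of the 3 libraries of a line and a bar for their mean. FZD2 is lowest in MC26 at 7.36 to 9.93 CPM, and LRP5 is lowest in M1B26 at 70.0 to 77.4 CPM.

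Several members lie on chromosome 17, whose genes had a median fold change above 0 in M1B26. Over the 843 genes tested there the median, on the log2 scale, was 0.00 in MC26 against CT, 0.48 in M1B26 against CT and 0.48 in M1B26 against MC26. RNF43, at 0.66 in M1B26 against CT, was 0.19 above that median, higher than 68.2% of the chromosome's genes, and at 0.33 in M1B26 against MC26 it was below it, higher than 36.1%. FZD2, at 1.27 in M1B26 against MC26, was above 89.9% of them and at -1.09 in MC26 against CT above 7.12%. At 0.18 in M1B26 against CT, FZD2 was above 27.6% of them. WNT3, at 0.27 in M1B26 against CT, was above 32.9% of them, and at 0.45 in M1B26 against MC26 above 46.5%. AXIN2, at -0.13 and -0.53 in M1B26 against CT and MC26, was above 12.2% and 4.03% of them. The part of the chromosome-wide shift in the values of RNF43, FZD2, WNT3 and AXIN2 was not tested, and gene copies were not measured.

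**Figure D5:**
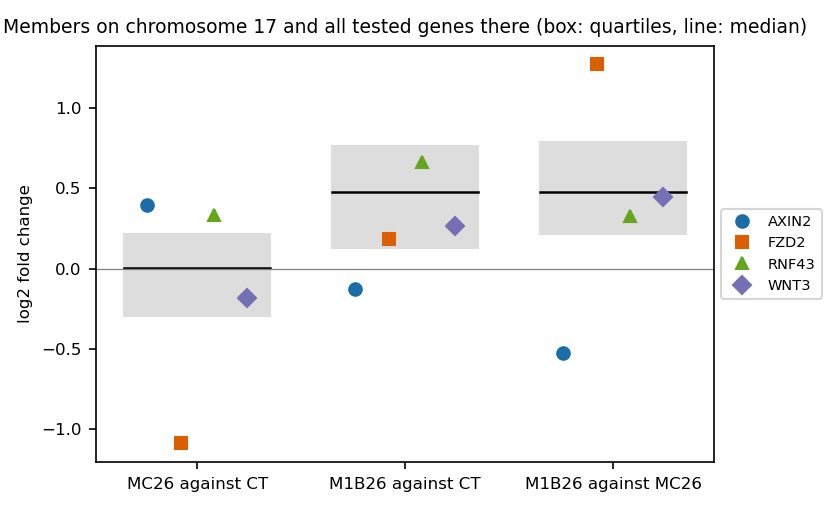
Log2 fold change (y axis) of the tested members AXIN2, FZD2, RNF43 and WNT3 on chromosome 17 (markers) in the 3 comparisons, with the median (line) and the quartiles (box) of all 843 tested genes of the chromosome. The median is 0.00 in MC26 against CT and 0.48 in both M1B26 comparisons.

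The sequences before the transcription start were examined for motifs of factors downstream of WNT, IL6 and BMP2. Windows of 250 bases before the RefSeq start (GRCh38.p14) were found for 32 members, 17 of them tested, and the first listed start was used. The 3 windows below belong to the members of at least 1 CPM that were called at 2-fold or more and had a single listed start. They are LRP5 (chr11:68312341-68312590, plus strand) and WNT9A (chr1:227947933-227948182, minus strand), which were lower in M1B26, and WNT7A (chr3:13880072-13880321, minus strand), which was higher. Capitals mark GGCGCC, the motif bound by SMAD1 and SMAD5, which carry the BMP2 signal.
LRP5: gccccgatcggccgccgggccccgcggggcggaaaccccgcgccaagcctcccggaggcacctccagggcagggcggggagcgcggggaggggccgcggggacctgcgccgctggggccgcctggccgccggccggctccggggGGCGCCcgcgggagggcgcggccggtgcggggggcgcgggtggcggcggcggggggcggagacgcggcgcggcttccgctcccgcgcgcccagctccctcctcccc
WNT9A: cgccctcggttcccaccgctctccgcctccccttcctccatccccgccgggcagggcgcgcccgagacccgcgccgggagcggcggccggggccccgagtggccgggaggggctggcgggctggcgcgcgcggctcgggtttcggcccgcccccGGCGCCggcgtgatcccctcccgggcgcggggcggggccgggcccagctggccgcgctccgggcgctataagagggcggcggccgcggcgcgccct
WNT7A: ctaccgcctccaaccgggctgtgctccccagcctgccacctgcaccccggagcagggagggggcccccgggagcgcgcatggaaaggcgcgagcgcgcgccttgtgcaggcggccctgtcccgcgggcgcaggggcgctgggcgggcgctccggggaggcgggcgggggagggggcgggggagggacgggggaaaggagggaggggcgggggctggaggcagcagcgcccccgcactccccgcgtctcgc
Read 5′ to 3′, the motif stands at bases 145 to 150 for LRP5 and 155 to 160 for WNT9A, and these letters are not in the WNT7A window. All 3 windows are rich in G and C, with 87.2%, 84.4% and 80.4% in the order printed. GGCGCC was in the windows of 6 of the 17 tested members, FZD1, FZD5, LRP5, WNT10A, WNT3A and WNT9A, or 35.29%, and in 16.38% of all 35116 windows. The median GC content was 69.2% for the 17 members and 58% for all windows. A TCF/LEF motif (CTTTG and then AA, AT, TA or TT) was in 11.96% of all windows and in 1 tested member, DKK1. The STAT motif TTCNNNGAA was in 6.567% of all windows and in 1 tested member, ROR1. Both strands were searched, and a match is not evidence of binding.

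Ligand secretion and the extracellular partners of the pathway were examined next, from lists of genes outside the module. WLS, which carries WNT proteins to the cell surface, had 43.0, 46.5 and 43.5 CPM in CT, 40.8, 40.8 and 47.0 in MC26 and 75.8, 77.4 and 79.5 in M1B26. It rose in M1B26 by 0.81 ± 0.07 against CT (edgeR adjusted p = 8.15e-06) and 0.85 ± 0.07 against MC26 (edgeR adjusted p = 1.28e-05), with no overlap, and was at -0.05 ± 0.07 in MC26 against CT. PORCN, which attaches the lipid to WNT proteins, had 10.4 to 15.3 CPM and was lower in M1B26 than in MC26 by 0.31 ± 0.11 (edgeR adjusted p = 0.0469), a call lost without CT replicate 1, MC26 replicate 1 or 2 or M1B26 replicate 1, 2 or 3, at values between -0.36 and -0.24. Of 8 other extracellular modulators tested, 2 were called higher and none lower in MC26 against CT, 5 higher and 1 lower in M1B26 against CT, and 3 higher and 1 lower in M1B26 against MC26, where 38.7%, 48.9% and 39.5% of all genes were called in either direction. KREMEN1, a DKK receptor, rose by 0.90 ± 0.11 and 0.91 ± 0.11 in MC26 and M1B26 against CT (edgeR adjusted p = 0.000114 and 6.37e-05). KREMEN2, its relative, rose in M1B26, by 0.92 ± 0.27 against CT (edgeR adjusted p = 0.0148) and 1.31 ± 0.28 against MC26 (edgeR adjusted p = 0.00388). GPC4, a cell-surface proteoglycan that binds WNT, rose in M1B26 by 0.58 ± 0.11 against CT (edgeR adjusted p = 0.00105) and by 0.68 ± 0.11 against MC26 (edgeR adjusted p = 0.000701).

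Within the cell, the 23 tested genes of the cytoplasmic beta-catenin branch were called higher and lower in 4 and 3 cases in MC26 against CT, 4 and 7 in M1B26 against CT, and 2 and 4 in M1B26 against MC26, where 38.7%, 48.9% and 39.5% of all genes were called. CTNNB1, which encodes beta-catenin, had mean levels of 304, 273 and 283 CPM in CT, MC26 and M1B26 and passed no test. CSNK1D, a casein kinase of the pathway, had mean levels of 129, 165 and 239 CPM and rose by 0.36 ± 0.08 in MC26 (edgeR adjusted p = 0.00584) and 0.89 ± 0.08 in M1B26 (edgeR adjusted p = 1.06e-05) against CT. It too lies on chromosome 17. CSNK1E, another such kinase, rose by 0.33 ± 0.09 (edgeR adjusted p = 0.0103) and 0.55 ± 0.09 (edgeR adjusted p = 0.000377). FRAT1, an inhibitor of GSK3, fell by 0.70 ± 0.23 in MC26 (edgeR adjusted p = 0.0306) and by 0.79 ± 0.23 in M1B26 (edgeR adjusted p = 0.0133), and the first call was lost without CT replicate 1 or 3 or MC26 replicate 1 or 2, at values between -0.78 and -0.49, the second without CT replicate 3 or M1B26 replicate 1, at -0.71 and -0.65. Of 19 nuclear genes, 1 was called higher and 2 lower in MC26, and 3 higher and 5 lower in M1B26, each against CT, and 4 were higher and 5 lower in M1B26 against MC26, beside 38.7%, 48.9% and 39.5% of all genes. TCF7, a transcription factor partner of beta-catenin, had 1.70, 1.62 and 1.63 CPM in CT, 1.39, 1.36 and 1.39 in MC26 and 5.70, 5.25 and 6.44 in M1B26. It rose in M1B26 by 1.81 ± 0.13 against CT (edgeR adjusted p = 2.14e-06) and 2.07 ± 0.14 against MC26 (edgeR adjusted p = 2.78e-06). TLE2, a co-repressor, had mean levels of 1.04, 0.237 and 0.496 CPM in CT, MC26 and M1B26 and was at log2 values of -2.17 ± 0.34 in MC26 and -1.12 ± 0.30 in M1B26 against CT (edgeR adjusted p = 0.000591 and 0.00962). The M1B26 call was lost without CT replicate 3, at -0.94. TBL1X, a co-regulator on the X chromosome, fell by 1.61 ± 0.37 in MC26 (edgeR adjusted p = 0.00572) and was at -0.45 ± 0.35 in M1B26 (edgeR adjusted p = 0.305).

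Of 13 tested genes commonly listed as beta-catenin targets, 7 were called higher and 1 lower in MC26 against CT, 6 higher and none lower in M1B26 against CT, and 2 higher and 8 lower in M1B26 against MC26. Over all genes, 18.8% were higher and 19.9% lower in the first, 25.2% and 23.7% in the second, and 21.2% and 18.4% in the third of these comparisons. FOSL1, an AP-1 transcription factor, had 46.1, 35.7 and 53.7 CPM in CT, 183, 128 and 97.2 in MC26 and 95.8, 91.4 and 85.2 in M1B26. It rose by 1.58 ± 0.20 in MC26 (edgeR adjusted p = 0.000156) and 1.0 ± 0.20 in M1B26 (edgeR adjusted p = 0.0019) against CT. PLAUR, the urokinase receptor, had 10.6, 9.08 and 12.7 CPM in CT, 41.4, 32.6 and 25.8 in MC26 and 18.3, 21.3 and 20.6 in M1B26. It rose by 1.61 ± 0.17 (edgeR adjusted p = 3.48e-05) and 0.88 ± 0.17 (edgeR adjusted p = 0.00131). TCF7 and LEF1 belong to both this list and the nuclear list. TCF7, with the values given above, was called higher in M1B26 than in CT and in MC26. Most genes of this list are also induced by other signals. AXIN2, a member of the module, did not pass the test in any comparison, and NKD1, a feedback inhibitor of the pathway, was the gene of the list called lower in MC26. NKD1 fell by 0.82 ± 0.25 in MC26 against CT (edgeR adjusted p = 0.0224), was at 0.42 ± 0.22 in M1B26 against CT (edgeR adjusted p = 0.146), and was higher in M1B26 than in MC26 by 1.24 ± 0.24 (edgeR adjusted p = 0.00249). Of 22 genes of the planar polarity branch, 5 were called higher and 4 lower in MC26, and 4 higher and 7 lower in M1B26, each against CT, and 3 in each direction between the derived lines, beside 38.7%, 48.9% and 39.5% of all genes. PRICKLE1, a core polarity protein, had 9.83, 10.2 and 8.45 CPM in CT, 1.24, 1.33 and 2.07 in MC26 and 2.41, 1.85 and 3.14 in M1B26. Against CT it fell by 2.60 ± 0.23 in MC26 (edgeR adjusted p = 1.01e-05) and fell by 1.93 ± 0.21 in M1B26 (edgeR adjusted p = 3.52e-05). ANKRD6, which binds Dishevelled proteins, rose by 0.91 ± 0.25 in MC26 (edgeR adjusted p = 0.0138) and 2.17 ± 0.23 in M1B26 (edgeR adjusted p = 3.12e-05), and the MC26 call was lost without CT replicate 1 or MC26 replicate 2, at 0.89 and 0.68. DAAM2, a formin of this branch, rose by 1.63 ± 0.23 in M1B26 (edgeR adjusted p = 0.000181).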

How the data were processed

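RNA was enriched for poly-A transcripts and read from both ends in 9 cultures, 3 per line. Titles gave each sample's line and replicate number. The deposited table holds raw counts by gene symbol. The authors aligned the reads with STAR 2.7.3a to GRCh38 and GENCODE genes. The submitters' notes also name Salmon 1.1.0, and the study's methods limit that step to protein-coding genes, but the table holds whole numbers and non-coding genes too. Which program counted the reads, whether it used strand and how it treated multiply aligned reads are not given in the sources used here, so members that share at least 10% of their exonic bases with another gene are marked. In R 4.3.3 with edgeR 4.0.16, filterByExpr (minimum count 10) left 15717 genes, TMM factors were applied, and a single quasi-likelihood model of all 9 libraries held a coefficient per line (glmQLFit, glmQLFTest, 2-sided, Benjamini-Hochberg adjustment over all genes). SE was derived from the log2 fold change and the F statistic, and the fit gave a biological coefficient of variation of 10.4%. Replicates are described as independent cultures of a line, so p-values measure the spread between cultures, pooled over the 3 lines. That spread differed between lines for some genes, as for WNT7B with an SD of 0.27, 7.02 and 0.33 CPM in CT, MC26 and M1B26. The p-values do not measure the spread between separate derivations of a line. Whether the M1B26 cultures were the separate clones or a pool of them is not given in the sources used here, so their spread may or may not include differences between clones.

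The members follow from their symbols. They and the lists of other pathway genes and markers were chosen with earlier results of these data known, so no test over a list was made. Full values are given for members with a mean of at least 1 CPM in a line and a called log2 change of 1 or more in either direction, and for AXIN2, RNF43, ZNRF3, LRP5, LRP6, LGR4, WNT5A, WNT7B, FZD7, SFRP1 and DKK1 whatever their values. From each pathway list at most 3 genes with the largest called change were named. CTNNB1, LEF1 and NKD1, the target gene called lower in MC26, were added after their values were seen. Positions and exon lengths came from GENCODE v44 on GRCh38 and promoter windows from RefSeq. Where no count was found, the limit was set at 3 counts per library, which covers counting error only. Alternatives were DESeq2 1.42.0, other scaling factors, other filters, fewer libraries and the replicate number as a block. The length of the canonical transcript was added after the data were examined. The fit was tested on simulated data with 200 changed genes, as many higher as lower in MC26, and equal spread in all lines. Far more genes were called in the real data, so that test does not bear on scaling or calls under such broad change.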

Additional observations from a re-analysis of the deposited data

Results flagged for a closer look

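The results below were singled out because the effects of the derived lines against CT differed in a direct test of M1B26 against MC26 (edgeR, Benjamini-Hochberg adjusted p under 0.05). With 3 libraries per line, no test for a single outlying library was made. Among the 29 tested members there were 12 such genes, where 39.5% of all genes tested passed the same test, so the number is near that of genes in general. On the log2 scale, M1B26 was above MC26 by 1.27 for FZD2, 1.14 for WNT2B, 1.12 for WNT7A, 0.59 for WNT10B, 0.33 for RNF43 and 0.32 for FZD3. It was below MC26 at -2.08 for WNT7B, -1.15 for WNT9A, -0.98 for FZD7, -0.91 for LRP5, -0.36 for LRP6 and -0.25 for ZNRF3. For FZD2, MC26 was called lower than CT and the M1B26 libraries overlapped CT, whereas for LRP5 and WNT7A the MC26 libraries overlapped CT.

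The genes named from the other pathway lists had been picked for their called changes, so their number says nothing, and the values of those that passed the same test follow. M1B26 was above MC26 by 2.07 for TCF7, 1.31 for KREMEN2, 1.26 for ANKRD6, 1.17 for DAAM2, 1.16 for TBL1X, 1.05 for TLE2, 0.85 for WLS, 0.68 for GPC4, 0.67 for PRICKLE1 and 0.53 for CSNK1D, and below it at -0.73 for PLAUR, -0.58 for FOSL1 and -0.31 for PORCN. Of these, PRICKLE1 and TLE2 were lower than CT in both derived lines, and FOSL1 and PLAUR were higher than CT in both. The call of FOSL1 was lost without MC26 replicate 1 or 2 or M1B26 replicate 1, 2 or 3, at values between -0.63 and -0.31. That of PRICKLE1 was lost without CT replicate 1, MC26 replicate 1 or 2 or M1B26 replicate 1 or 3, at 0.46 to 0.69, and that of TBL1X without MC26 replicate 1 or 2 or M1B26 replicate 3, at 0.73 to 1.0. The call of TLE2 was lost without CT replicate 1 or 3, MC26 replicate 1 or 2 or M1B26 replicate 1, 2 or 3, at 0.74 to 1.08, and that of PORCN without CT replicate 1, MC26 replicate 1 or 2 or M1B26 replicate 1, 2 or 3, at -0.36 to -0.24.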

How the results depend on the processing

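The 29 tested members gave 87 values over 3 comparisons, of which 42 were called. Under 16 other settings, 9 of them leaving out 1 library each, 27 calls held wherever a value was given, 15 were lost in at least 1 setting and 0 changed sign, while 11 values that were not called passed in at least 1 setting. Some calls were also lost under settings other than those that left out 1 library. FZD3 in M1B26 against MC26 was lost under 6 settings, 4 of which left out 1 library, and ZNRF3 there under 4 and 3. WNT10A in MC26 against CT was lost under 5 and 4. WNT9A in M1B26 was lost under 7 and 6 against CT and under 6 and 4 against MC26. The same held for FOSL1, PRICKLE1, TBL1X, TLE2 and PORCN in M1B26 against MC26. The settings gave no value in 29 cases, where the filter removed a gene. The count of members called ranged over the fits without 1 library from 10 to 15 in MC26 against CT, from 11 to 17 in M1B26 against CT and from 8 to 13 in M1B26 against MC26, while the count over all genes ranged from 4524 to 6127, from 6282 to 7941 and from 4503 to 7166. With no filter, 17 of 42 members were called in MC26 against CT, 6 higher and 11 lower, and 21.3% of all 29997 genes. In M1B26 against CT 20 were then called, 6 higher and 14 lower, against 26.6% of all genes. In M1B26 against MC26 14 were called, 8 higher and 6 lower, against 21.3%.

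Equal replicate numbers did not pair the libraries across all lines: 3 of 9 same-numbered pairs correlated over 0.1 in their deviations (range -0.137 to 0.21), and 8 of 18 matched their own number best. Between MC26 and M1B26, however, each library matched its own number best, at correlations of 0.148, 0.07 and 0.157 for replicates 1, 2 and 3. A batch shared by same-numbered libraries of these lines was not tested. With the replicate number as a block, 14, 15 and 12 members were called, and WNT9A was lost in M1B26 against CT (-1.03) and against MC26 (-1.10).

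Values near 0 that were not called changed sign. With total counts alone AXIN1 was at -0.042 in M1B26 against CT and FZD5 at -0.022 in MC26 against CT. Over the fits without 1 library, MC26 against CT ran from -0.47 to 0.11 for DKK3, -0.035 to 0.11 for FZD5, -0.35 to 0.096 for WNT7A, -0.30 to 0.47 for WNT9A and -0.0065 to 0.18 for PORCN. M1B26 against CT ran from -0.032 to 0.12 for AXIN1 and -0.40 to 0.040 for FZD4. M1B26 against MC26 ran from -0.068 to 0.013 for AXIN1, -0.20 to 0.054 for FZD1, -0.066 to 0.082 for LGR4, -0.16 to 0.057 for SFRP1, -0.19 to 0.0092 for WNT5A, -0.30 to 0.055 for FRAT1 and -0.070 to 0.085 for KREMEN1. With canonical transcript lengths, the FZD6 share in MC26 was 74.7%. The causes were not tested.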
